A study of Gallus gallus with 4 samples.

Results

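The 514 peaks described here were the core promoter HIF1α peaks of the chick autosomes. They were the listed HIF1α binding regions, or peaks, that lay on a chromosome other than Z or W and whose distance to the closest transcription start site (TSS) was at most 1000 bp. A distance of 0 means that the peak covered the TSS. They made up 6.32% of the 8133 autosomal peaks (Wilson 95% interval 5.81 to 6.87), out of 8375 peaks in all. Another 12 peaks within 1000 bp of a TSS lay on the sex chromosomes and were left out. The peaks came from primary lens cell cultures of White Leghorn chick embryos at embryonic day 10, mapped by CUT&RUN, in which an antibody guides a nuclease to its target in permeabilized cells and the released DNA fragments are sequenced. All cells, including those of the IgG control, had been exposed for 4 h to 1 mM dimethyloxalylglycine (DMOG). The cells were pooled into 2 lots of 500000 cells, and each lot was split between a HIF1α antibody and a non-specific IgG, which gave 2 HIF1α and 2 IgG libraries. Peaks were called on the pooled libraries, so each peak has 1 value and no replicate error, and the intervals given here cover counting error only. No cells without DMOG were part of the series, so the peaks describe treated cells and no change with treatment. The list holds no expression values, so the labelled cell type could not be checked against its markers.

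HIF1α is the oxygen-regulated subunit of a heterodimeric transcription factor that pairs with ARNT. In oxygenated cells, prolyl hydroxylases that use oxygen and 2-oxoglutarate mark HIF1α for destruction, and DMOG, which enters cells and mimics 2-oxoglutarate, blocks these enzymes and lets HIF1α accumulate. Known HIF1α target genes encode glycolytic enzymes, glucose and lactate transporters and mitophagy receptors, and many carry the binding site close to their TSS. The lens has no blood supply of its own, and its fibre cells lose their mitochondria and other organelles as they mature. The core promoter is the stretch around the TSS on which the transcription machinery assembles. The name is used more widely here, for any autosomal peak within 1000 bp of a TSS. Of the 514 peaks, 435 did not reach the TSS.

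The core promoter peaks crowded towards the TSS. Of the 514 peaks, 79 covered the TSS itself (15.4%, Wilson 95% interval 12.5 to 18.7), and the median distance over all 514 was 286 bp. The first 100 bp from the TSS held 76 peaks and the last 100 bp before the 1000 bp limit held 31. Expressed per 100 positions available to a peak (both sides of the TSS counted, and the mean peak length of 164 bp taken for covering it), there were 48.2 peaks covering a TSS, 32.0 at 1 to 250 bp, 23.4 beyond 250 and up to 500 bp and 15.8 beyond 500 and up to 1000 bp. Outside the limit the rate was 13.9 up to 3000 bp and 10.4 from there to 10000 bp, so the steep part of the fall lay within the first 500 bp. These rates are a description, since each peak was assigned to its closest TSS and fewer sites remain available at larger distances.

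**Figure D1:**
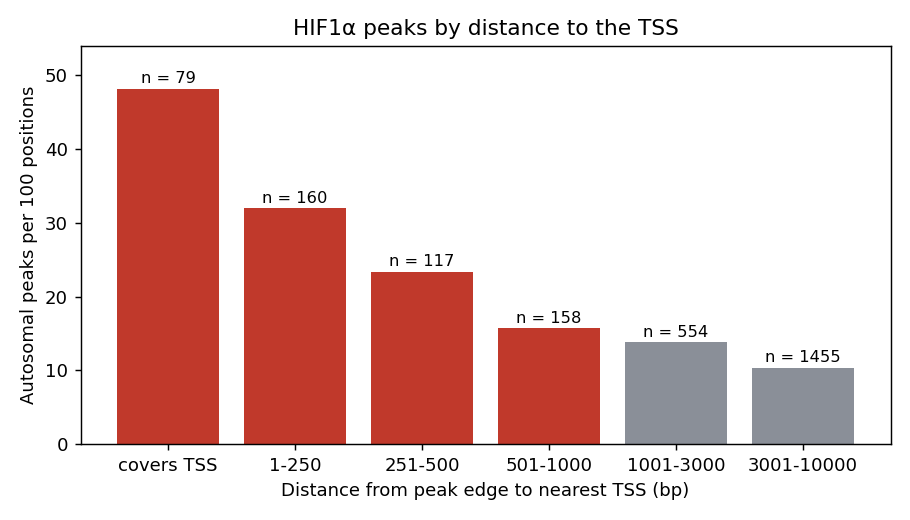
Autosomal HIF1α peaks per 100 positions by distance from the peak's edge to the closest TSS in bp, with the number of peaks above each bar, core promoter classes in red and farther classes in grey. The rate falls from 48.2 for peaks covering a TSS to 15.8 in the last core promoter class, and is 13.9 just outside.

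For 23 of the 79 TSS-covering peaks, a second listed peak of the same transcript fixed the position of the TSS. The distance was measured from the nearest edge of the peak: in 3010 of 3010 pairs of peaks sharing a transcript, both peaks pointed to the same TSS within 1 bp. In these 23 peaks the summit, the base with the most fragments, lay 8 to 153 bp from the TSS, with a median of 71 bp, and 10 of them had it within 50 bp. The summit was 20 bp from the TSS of PGK1, 14 bp from that of SNX13, 24 bp from that of MAF, 49 bp from that of EGLN3 and 102 bp from that of LDHA. Whether a summit lay upstream or downstream was not analysed here, because the list gives no strand.

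Most core promoter peaks were small. The pileup, the number of overlapping HIF1α fragments at the summit, had a median of 10 (95% interval of the median 9 to 10) against 9 for the 7619 other autosomal peaks. It ranged from 7 to 375. A pileup of 7 to 9 was found in 48.6% of core promoter peaks and 59.6% of the other peaks, a pileup of 10 to 19 in 45.3% and 32.3%, and a pileup of 20 or more in 6.03% and 8.16%. The core promoter peaks were thus more often of middle height, while the peaks with the highest pileups lay mostly elsewhere. A pileup of at least 100 was found in 4 core promoter peaks (0.778%) and in 196 other peaks (2.57%). Pileup takes no account of the background, and shares by fold enrichment and by significance are given below. A single pileup is imprecise at this depth, since the exact Poisson 95% interval runs from 2.81 to 14.4 around 7 fragments and from 4.80 to 18.4 around 10.

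A pileup above the autosomal median of 9 was found in 51.4% of core promoter peaks against 40.4% of other autosomal peaks, an odds ratio of 1.56 (95% interval 1.30 to 1.87). The two-sided Fisher's exact test gave an adjusted p of 4.83e-06 (Benjamini-Hochberg over 7 comparisons, as for the other Fisher's tests of this kind). The test counts peaks of 1 pooled data set as independent, so it compares peaks and says nothing of the spread between lens cultures. The difference was also present when peaks were compared within each chromosome (Mantel-Haenszel odds ratio 1.49, adjusted p 1.47e-04, exact conditional test). It was concentrated close to the TSS. Without the TSS-covering peaks, which were long (median 184 bp), the odds ratio was 1.43 (Fisher's exact test, adjusted p 0.00127). The share above the median was 63.3% in peaks covering the TSS, 53.1% at 1 to 250 bp and 57.3% from there to 500 bp. Between 500 and 1000 bp it was 39.2%, beside 41.2% from there to 3000 bp and 39.0% from 3000 to 10000 bp, and the intervals of these last 3 classes overlapped.

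Core promoter peaks were also longer, with a median of 148.5 bp (144 to 152) against 137 bp (135 to 138). A length above the autosomal median of 137 bp was found in 58.9% against 49.1% (odds ratio 1.49, 95% interval 1.24 to 1.79, Fisher's exact test, adjusted p 4.09e-05), and in the within-chromosome comparison the odds ratio was 1.43 (adjusted p 5.58e-04). The longest class was that covering the TSS, with a median of 184 bp (163 to 196), but a longer peak has more positions from which it can cover a TSS. Without the TSS-covering peaks the odds ratio was 1.32 (adjusted p 0.0115).

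Fold enrichment is the ratio of the HIF1α pileup to the background expected at that place, with 1 added to each. In core promoter peaks it had a median of 4.12 (3.96 to 4.21), against 3.92 in the others. It lay above the autosomal median in 55.4% against 48.8% (odds ratio 1.31, 95% interval 1.09 to 1.57, Fisher's exact test, adjusted p 0.00617), and within chromosomes the odds ratio was 1.37 (exact conditional test, adjusted p 0.00144). It no longer passed over all autosomes without peaks of high background, defined in the next paragraph (odds ratio 1.15, adjusted p 0.159), though it did so within chromosomes without those peaks (1.25, adjusted p 0.0240). It also did not pass against other peaks within 10 kb of a TSS only (odds ratio 1.15, adjusted p 0.212). A fold enrichment of at least 5 was found in 15.6% of core promoter peaks and 10.9% of other autosomal peaks. One of at least 10 was found in 4 (0.778%) and 28 (0.368%). These shares were not tested. The −log10 q, the peak caller's measure of significance on which higher is stronger, had medians of 2.38 and 2.28. The share above the autosomal median did not pass the test (52.3% against 48.1%, Fisher's exact test, adjusted p 0.0681, 95% interval of the odds ratio 0.988 to 1.42). A −log10 q of at least 3 was found in 32.3% (28.4 to 36.5) and 26.1% (25.1 to 27.1), which was not tested.

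The background behind each peak, worked out from its pileup and fold enrichment, reflects the IgG signal there or the genome-wide level where that was higher. Its lowest value was 1.30 fragments, and a background over 3 times that value (3.89 fragments) is called high IgG background. The median background was 1.41 fragments in core promoter peaks and 1.30 in the others. Among core promoter peaks it was 1.60 for those covering the TSS and 1.37 for those at 1 to 1000 bp. The median fold enrichments of these 2 groups were 4.03 and 4.14. The higher pileups at the TSS thus came with no higher fold enrichment. High IgG background was found in 29 core promoter peaks (5.64%) and 610 other peaks (8.01%), a difference that did not pass the test over all chromosomes (odds ratio 0.687, Fisher's exact test, adjusted p 0.0681) and did so within chromosomes (odds ratio 0.489, exact conditional test, adjusted p 0.00121). The 29 peaks had pileups of 14 to 375 with a median fold enrichment of 2.86. They supplied 20 of the 31 core promoter peaks with a pileup of at least 20. A peak over a higher background needs a higher pileup to be called, so this share is partly set by the peak calling. The entry MGAT1, a symbol with no RefSeq match, is an example: at 984 bp, a pileup of 206 stood over a background of 135 fragments.

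**Figure D2:**
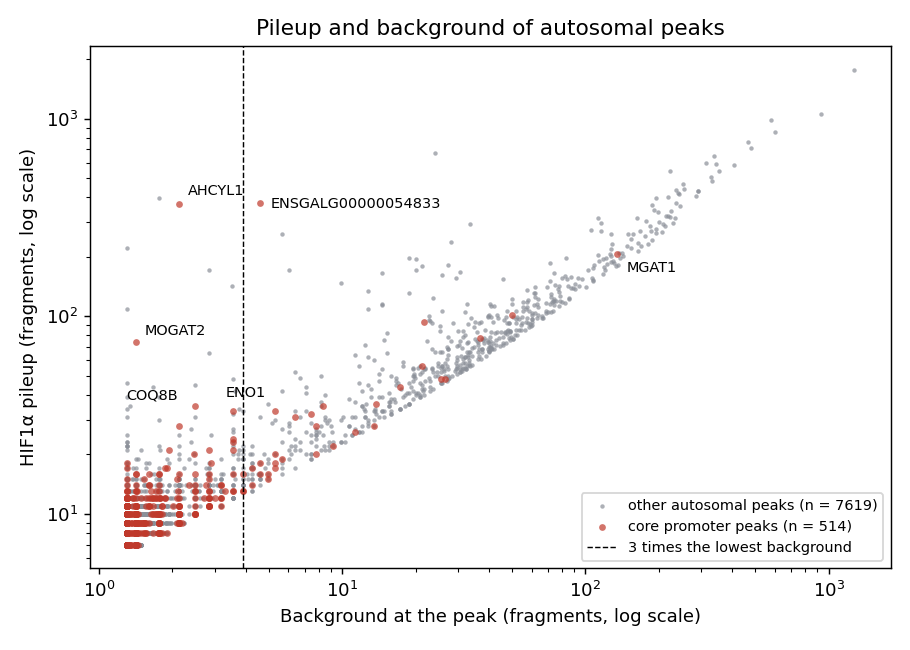
HIF1α pileup against background, both in fragments on log scales, for 514 core promoter peaks and 7619 other autosomal peaks, with the limit for high IgG background dashed. Most core promoter peaks sit at a pileup of 7 to 19 over a low background, and AHCYL1 at 371 stands far above its background.

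Core promoter peaks more often had another listed peak within 1 kb (8.17% against 5.50%, odds ratio 1.53, Fisher's exact test, adjusted p 0.0244). The odds ratio within chromosomes was 1.31 and did not pass the exact conditional test (adjusted p 0.142). Of the 42 core promoter peaks with a neighbour, 2 had high IgG background, and of the 419 other autosomal peaks with one, 228 had it. The neighbour was assigned to the same gene entry in 42 of 42 and 409 of 419 cases. Without peaks of high IgG background, the within-chromosome odds ratio was 2.85 (exact conditional test, adjusted p 9.59e-07). Being a neighbour is mutual, so each member of a close pair or cluster was counted. The counts are therefore not independent, and the p-values for neighbours, here and below, are too small to take at face value.

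The peaks were spread over the whole genome: each of the 32 autosomes with any peak had at least 1 in a core promoter. Bird genomes combine a few large chromosomes with many small, gene-dense microchromosomes. On chromosomes 1 to 5, 226 of 4917 peaks (4.60%, 4.05 to 5.22) were core promoter peaks, on chromosomes 6 to 10, 78 of 1224 (6.37%), and on the microchromosomes, here chromosome 11 and above, 210 of 1992 (10.5%, 9.27 to 11.97). Microchromosomes thus held 40.9% of core promoter peaks and 23.4% of the other autosomal peaks (odds ratio 2.26, 95% interval 1.87 to 2.73, Fisher's exact test, adjusted p 2.31e-16). The number of TSSs on each chromosome was not part of this test. Against other peaks within 10 kb of a TSS the odds ratio was 1.43 (adjusted p 0.00112). Among the 29 autosomes with at least 50 peaks, the share was highest on chromosome 26 (17 of 53, 32.1%) and next on chromosome 21 (14 of 70, 20.0%). It was lowest on chromosome 31 (1 of 67, 1.49%).

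**Figure D3:**
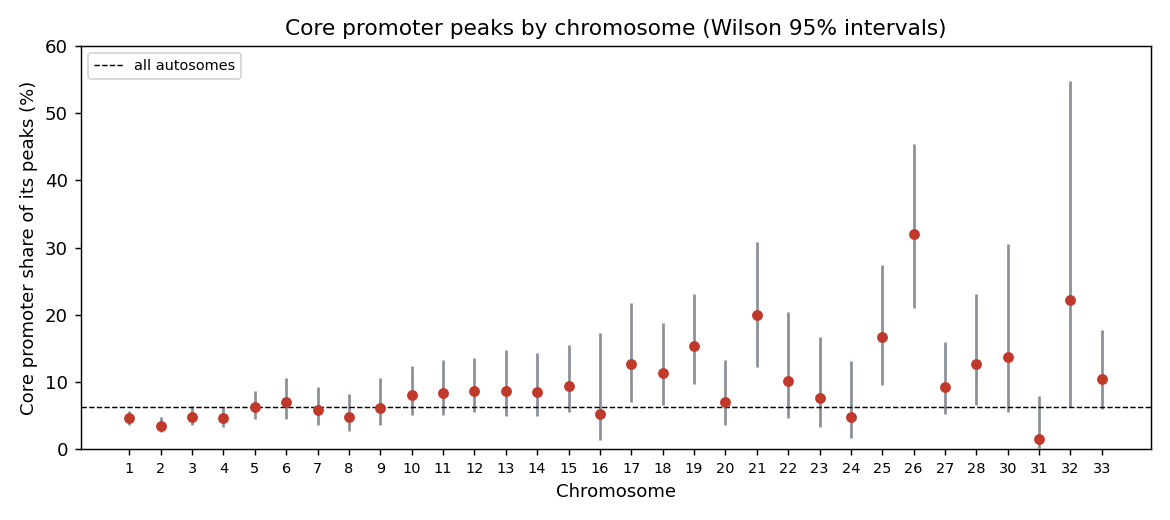
Share of autosomal peaks in a core promoter, in percent with Wilson 95% intervals, for each chromosome, with the share over all autosomes as a line. Chromosome 26 reaches 32.1%, against 6.32% overall.

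The size class also changed how the core promoter peaks compared with other peaks. High IgG background was found in 4.29% of core promoter and 18.6% of other peaks on microchromosomes (odds ratio 0.196, adjusted p 9.74e-08), and in 7.08% and 5.03% on chromosomes 1 to 5 (odds ratio 1.44, adjusted p 0.295), by Fisher's exact test adjusted over 18 comparisons within classes. The comparison with peaks within 10 kb of a TSS only was not run by size class. A fold enrichment above the autosomal median was found in 60.5% and 43.2% on microchromosomes (odds ratio 2.01, adjusted p 2.09e-05), and in 52.7% and 50.8% on chromosomes 1 to 5 (odds ratio 1.08, adjusted p 0.671). Neighbouring peaks went opposite ways: they were more frequent in core promoters on chromosomes 1 to 5 (10.6% against 3.58%, adjusted p 3.36e-05) and less frequent on microchromosomes (6.67% against 12.2%, adjusted p 0.0424). Without chromosomes 16 and 30 to 33, left out after their high IgG background had been seen, the odds ratio for neighbours on microchromosomes went from 0.515 to 0.779 and no longer passed (adjusted p 0.603). For pileup, the odds ratio was 1.71 on chromosomes 1 to 5 (adjusted p 3.91e-04) and 1.23 on microchromosomes, where it did not pass (adjusted p 0.295). For length, the odds ratios were 1.40 and 1.47. On chromosomes 6 to 10, with 78 core promoter peaks, no measure passed. There the odds ratio was 1.33 for length (Fisher's exact test, adjusted p 0.361), 1.39 for pileup (adjusted p 0.295) and 1.03 for fold enrichment (adjusted p 0.907).

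**Figure D4:**
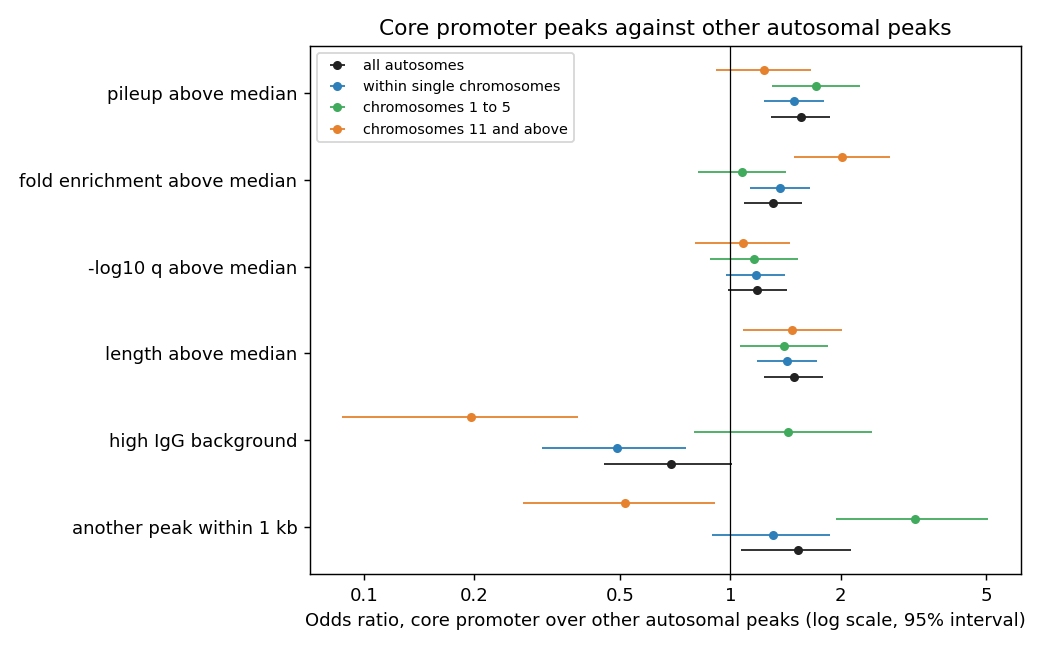
Odds ratios of core promoter over other autosomal peaks on a log axis, with 95% intervals, for 6 measures over all autosomes, within single chromosomes, on chromosomes 1 to 5 and on chromosomes 11 and above. Pileup (1.56) and length (1.49) lie above 1 over all autosomes, while high IgG background and another peak within 1 kb lie on opposite sides of 1 in the small and large chromosome classes.

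The 514 peaks carried 489 different gene entries. Of the peaks, 395 (76.8%) were assigned to a protein-coding gene known to RefSeq, 86 to an identifier and 13 to a symbol with no RefSeq match, 16 to a microRNA and 4 to an RNA family. In 57 peaks the entry listed at least 2 symbols, and such a peak cannot be given to 1 gene. Of 26 entries with 2 protein-coding symbols, 24 named genes that are neighbours in the RefSeq order. Of the 489 entries, 172 were also the closest gene of a peak farther than 1000 bp away. In all, 407 of 13661 autosomal protein-coding genes had a core promoter peak, which is 2.98% and is the level against which the gene lists are read. Peaks whose identifier or symbol had no RefSeq match could not enter this count, so the share may be too low. Of the 407, 26 were found in RefSeq only through a synonym, PGK1 among them, and some of these matches are uncertain. Without them the share was 2.79%.

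The strongest core promoter peak was that of AHCYL1, which encodes a protein that binds the inositol trisphosphate receptor. It covered the TSS on chromosome 26 (chr26:1296513-1296698, galGal6), with a pileup of 371 (exact Poisson interval 334 to 411) over a background of 2.12 fragments, which gave a 119-fold enrichment at a −log10 q of 669. At 186 bp it was one of the narrower of the leading peaks. The next, at 489 bp from the start of ENSGALG00000054833 on chromosome 25, had a pileup of 375 and was enriched 67.2-fold, but it spanned 2201 bp and had high IgG background. MOGAT2, which encodes an acyltransferase of triglyceride synthesis, had 74 fragments at 588 bp over a background of 1.41, an enrichment of 31.1-fold. These 3 stood apart from the rest in fold enrichment.

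COQ8B, which encodes a kinase-like protein of coenzyme Q synthesis, followed with a fold enrichment of 10.4 and a pileup of 35 in a peak of 601 bp whose edge was 99 bp from the TSS. GATAD2B, a subunit of the NuRD chromatin remodelling complex, had 18 fragments at 223 bp, an 8.26-fold enrichment. The peak of RF02252, an RNA family entry on chromosome 3, had a pileup of 94 but over 21.6 fragments of background, so its fold enrichment was 4.21. It ended less than 3000 bp before the core promoter peak of SIX3 (chr3:25942574-25942996). The 5 longest core promoter peaks were that of ENSGALG00000054833, one of PGK1 at 609 bp, that of ENSGALG00000037737 at 608 bp with high IgG background, that of COQ8B and that of the shared entry of PSMG1 and BRWD1, which had 580 bp and 11 fragments.

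The genes of glucose use held the largest number of core promoter peaks among the 5 gene lists. Of 36 listed genes that RefSeq places on autosomes, 8 had one (22.2%, Wilson 95% interval 11.7 to 38.1), beside 2.98% of all protein-coding genes, and 4 of the 8 had a peak covering the TSS. The lists were drawn up with earlier results of these data known, so the counts are a description. The 8 genes act at some steps on the path of glucose through the cell. SLC2A1 is a glucose transporter and PFKFB3 a regulator of glycolytic flux. TPI1, PGK1, ENO1 and PKM are glycolytic enzymes, LDHA is lactate dehydrogenase and SLC16A1 a lactate transporter. Listed genes of other steps, among them HK1, HK2, GPI and GAPDH, had no core promoter peak. None of the 10 peaks of the 8 genes had high IgG background, but several were weak. SLC2A1 had 8 fragments at 527 bp and PKM had 7 at 585 bp, both at a −log10 q of 1.38. With −log10 q of at least 3, 4 of the 8 genes remained, beside 127 of the 407 protein-coding genes with a core promoter peak. The peak of PKM belonged to an entry shared with GRAMD2A and gga-mir-6660.

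PGK1, the phosphoglycerate kinase that makes the first ATP of glycolysis, had 3 core promoter peaks on chromosome 4. The main one (chr4:12938147-12938755) covered the TSS over 609 bp with 28 fragments (18.6 to 40.5), a 9.29-fold enrichment. The other two, at 415 and 763 bp, had pileups of 8 and 9, near the lower end of the list. The PGK1 peak was the longest of all TSS-covering peaks.

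ENO1, the enolase, had 33 fragments and a 7.49-fold enrichment in a peak covering its TSS (chr21:3233042-3233233). Its background there, 3.54 fragments, was just under the 3.89 limit for high IgG background. TPI1, the triosephosphate isomerase, had 16 fragments and a fold enrichment of 7.04 at its TSS (chr1:77940696-77940908). LDHA, which turns pyruvate into lactate, had 13 fragments and a fold enrichment of 4.03 at its TSS (chr5:12753825-12754176). PFKFB3, whose product makes the activator of phosphofructokinase, had 16 fragments and a fold enrichment of 6.14 at 381 bp. A second PFKFB3 peak, with 17 fragments and a fold enrichment of 7.84, lay at 1002 bp, just outside the limit. SLC16A1 had a pileup of 9 at 33 bp, and its interval of 4.12 to 17.1 includes the lowest pileup of the list, 7.

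**Figure D5:**
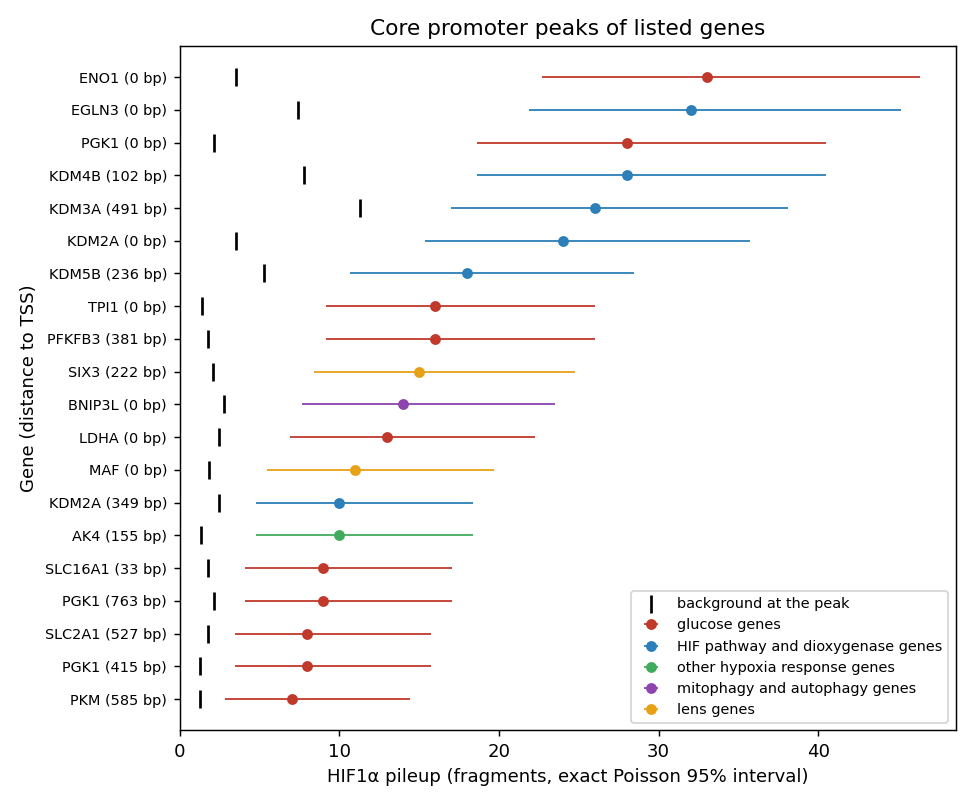
Pileup in fragments with exact Poisson 95% intervals of the core promoter peaks of genes on the 5 lists, with the background of each. ENO1 and EGLN3 have like pileups of 33 and 32, over backgrounds of 3.54 and 7.43 fragments.

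Of 36 genes of the HIF pathway and of 2-oxoglutarate dioxygenases, 5 had a core promoter peak (13.9%, 6.08 to 28.7). The share of all protein-coding genes was 2.98%. EGLN3 encodes one of the prolyl hydroxylases that mark HIF1α, and the other 4 encode histone lysine demethylases of the same dioxygenase class. KDM2A, which acts on histone H3 lysine 36, had 24 fragments at its TSS with a fold enrichment of 5.51. Its background there, 3.54 fragments, was just under the 3.89 limit for high IgG background. A second KDM2A peak, at 349 bp, had 10 fragments at a −log10 q of 1.43. EGLN3 had 32 fragments at its TSS with a fold enrichment of 3.92. KDM4B had 28 fragments at 102 bp (fold enrichment 3.30) and KDM5B 18 fragments at 236 bp (3.01), and the last gene was KDM3A. High IgG background marked the peaks of EGLN3, KDM4B, KDM5B and KDM3A. With such peaks left out, 1 of 36 genes, KDM2A, had a core promoter peak. That share is near the 2.87% of all protein-coding genes counted in the same way. The −log10 q, which already takes the background into account, was 7.05 for EGLN3, 4.35 for KDM4B, 2.21 for KDM5B and 1.46 for KDM3A. With −log10 q of at least 3 and no limit on background, 3 of the 5 genes remained. Of the 407 protein-coding genes with a core promoter peak, 127 did.

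Among 34 other genes of the hypoxia response, AK4, a mitochondrial adenylate kinase, was the only one with a core promoter peak (2.94%, 0.521 to 14.9), with 10 fragments at 155 bp. Among 40 genes of mitophagy and autophagy, the mitophagy receptor BNIP3L was the only one (2.50%, 0.443 to 12.9), with 14 fragments and a fold enrichment of 4.00 at its TSS over 2.75 fragments of background. Both shares lay near the 2.98% of all protein-coding genes. Of 37 lens genes, 2 had a core promoter peak (5.41%, 1.50 to 17.7), and both encode transcription factors of lens development. SIX3 had 15 fragments at 222 bp with a fold enrichment of 5.20. MAF had 11 fragments at its TSS with a fold enrichment of 4.26. The interval of the lens share includes the 2.98% of all protein-coding genes. No crystallin gene of the list had a core promoter peak, which at that share says little for so few genes. ENO1, which the study also describes as a lens crystallin, had one but was counted with the glucose genes only.

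The 20 core promoter peaks of listed genes had a median pileup of 14.5, against 10 for the other 494, while their median fold enrichment was 3.96 against 4.14. They covered the TSS in 40.0% of cases against 14.4%, and 20.0% against 5.06% had high IgG background. The lists were drawn up with earlier results of these data known, and PGK1 and KDM2A enter with repeated peaks. These values are therefore a description.

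Gene families read from shared symbol prefixes mostly gave shares near or above the overall 2.98%. Of 298 solute carrier genes 12 had a core promoter peak (4.03%), of 231 ubiquitin pathway genes 8 (3.46%), of 143 trafficking genes 6 (4.20%) and of 126 zinc finger genes 6 (4.76%). The prefixes of ribosomal proteins gave 5 of 78 (6.41%, 2.77 to 14.1), a count that includes the kinase gene RPS6KA5. Translation initiation factors, which start protein synthesis, had none of 49, where the Wilson interval reaches 7.27%. The highest share was that of the chromatin family, 6 of 81 (7.41%, 3.44 to 15.2), to which the 4 KDM genes belong. Intervals of all these families include 2.98% except that of the chromatin family, whose lower bound was 3.44%. Without peaks of high IgG background, which are those of KDM3A, KDM4B and KDM5B, 3 of 81 chromatin genes (3.70%) had a core promoter peak. Trafficking genes numbered 5 without a gene found only by a synonym.

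Several other genes had a peak at the TSS itself over a low background. PANK4, a member of the pantothenate kinase family, had 3 core promoter peaks on chromosome 21, with 21 fragments at the TSS and 15 and 14 fragments at 179 and 542 bp. PGK1 and PANK4 were the 2 entries with 3 such peaks, among 23 entries with at least 2. TMEM50A had 20 fragments with a fold enrichment of 6.09. CASK, a scaffold protein of cell contacts, had 16 fragments (6.55), PTRHD1 had 13 (5.80) and SNX13, a sorting nexin, had 12 (5.66).

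The 16 microRNA peaks belonged to 14 microRNAs, and 2 of them covered the annotated start. The largest belonged to gga-mir-210a, a relative of the microRNA known in mammals as a marker of hypoxia. It had 33 fragments at 380 bp over 469 bp of sequence, and was enriched 5.39-fold over a background of 5.31 fragments, which counts as high IgG background. Further peaks closest to the same microRNA lay at 1172, 1784 and 2129 bp with 12, 11 and 10 fragments. The other 15 core promoter peaks of microRNAs had 7 to 12 fragments.

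Just inside the 1000 bp limit lay ANKDD1A and BCHE, both at 996 bp with 9 and 8 fragments, and the shared entry of NSRP1 and EFCAB5 at 994 bp with 10 fragments, the core promoter median. Just outside lay PFKFB3 at 1002 bp with 17 fragments, RF02271 at 1012 bp with 8, and RBM11 at 1013 bp with 56 over a background of 20.9 fragments.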

How the data were processed

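Per the labels and the study's methods, the authors trimmed reads with Trimmomatic, aligned them with Bowtie2 to galGal6, filtered them with SAMtools for short nuclear fragments and ran MACS2 narrow peak calling with both HIF1α libraries pooled against both IgG libraries. In the deposited list the pileup is a signal in fragments, the fold enrichment is a ratio to the expected background, and significance is a −log10 q-value, with no q above 0.0496. Positions, closest gene and distance were used as deposited by the authors. Sequencing depth per library was not used here, and 0 columns of per-sample values were left unmatched. Background was computed as (pileup + 1) / fold enrichment − 1. Shares above the autosomal median were compared by two-sided Fisher's exact tests (SciPy 1.17.1, Python 3.11.15), with exact conditional Mantel-Haenszel tests within 32 chromosomes (R 4.3.3) and Benjamini-Hochberg adjustment at 0.05. The difference between chromosome classes was tested on log odds ratios. Gene names and gene order came from RefSeq (GRCg7b), whose coordinates were not used. Of 421 named symbols, 407 were found as autosomal protein-coding genes. Text names the 10 highest peaks by −log10 q, the 5 with the largest fold enrichment, the 5 longest, peaks of listed genes (values for the 15 highest by −log10 q), genes with 3 or more peaks, 3 peaks on each side of the limit and the 10 highest TSS-covering peaks of protein-coding genes with no high IgG background. Values are also given for the listed peaks of SLC2A1 and PKM and the second of KDM2A, which rank below those 15. MGAT1 and the farther gga-mir-210a peaks were chosen after their values were seen. Members and lists were chosen with earlier results of these data known. Alternatives changed the q limit, the distance limit, merging of peaks, IgG background, chromosomes and the comparison peaks. Overlap with open chromatin and promoter motifs were planned and not analysed here. The test code was tested on simulated data.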

Additional observations from a re-analysis of the deposited data

Results flagged for a closer look

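The comparison of core promoter with other autosomal peaks differed between microchromosomes (11 and above) and chromosomes 1 to 5 for 3 of 6 measures, by a two-sided z test of the difference of log odds ratios with Benjamini-Hochberg adjustment over 6. For fold enrichment above the autosomal median, the odds ratio on microchromosomes was 1.87 times that on chromosomes 1 to 5 (2.01 and 1.08, adjusted p 0.00379). For high IgG background the ratio of odds ratios was 0.136 (0.196 and 1.44, adjusted p 1.54e-05). For another peak within 1 kb it was 0.161 (0.515 and 3.20, adjusted p 3.86e-06).

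High IgG background was unevenly placed: 122 of the 610 other autosomal peaks that had it lay on chromosomes 16 and 30 to 33, which held 248 autosomal peaks, 20 of them in core promoters. Without these chromosomes, a choice made after seeing the data, the ratio was 1.49 for fold enrichment (adjusted p 0.110), 0.196 for high IgG background (adjusted p 0.00103) and 0.244 for neighbours (adjusted p 8.38e-04).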

How the results depend on the processing

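No paired analysis was possible because the 2 HIF1α and 2 IgG libraries were pooled before peaks were called and carry no values of their own, and for the same reason no replicate could be left out. Of 77 test values under alternatives, 56 kept their direction and side of the threshold. The odds ratio for microchromosomes and that for length did so under every alternative run. In the separate comparison on chromosomes 6 to 10, which is not among these 77, neither length (1.33) nor pileup (1.39) passed Fisher's exact test. For pileup the exceptions were microchromosomes only (1.23, adjusted p 0.199) and microchromosomes without 16 and 30 to 33 (1.35, adjusted p 0.0803), a setting added after seeing the data. For fold enrichment the odds ratio no longer passed with peaks covering the TSS only (1.30), without high IgG background (1.15), against peaks within 10 kb (1.15) and without chromosomes 16 and 30 to 33 (1.20, added after seeing the data). The −log10 q passed at 0 to 500 bp (1.29), with peaks merged within 1 kb (1.23), without high IgG background (1.25) and, added after seeing the data, without it and within chromosomes combined (1.23), but not within chromosomes alone (1.17, adjusted p 0.105). High IgG background passed with −log10 q of at least 3 (0.478), on microchromosomes (0.196), also without 16 and 30 to 33 (0.281), and within chromosomes (0.489), and turned direction against peaks within 10 kb (1.11, adjusted p 0.657). Neighbours within 1 kb no longer passed with −log10 q of at least 3 (1.07), at 0 to 500 bp (1.39), at 0 bp (1.37) and within chromosomes (1.31), and turned direction on microchromosomes (0.515, adjusted p 0.0247; without 16 and 30 to 33, 0.779, adjusted p 0.603). With −log10 q of at least 3 there were 166 core promoter peaks (7.71%) and 127 protein-coding genes, with 4 glucose, 3 HIF pathway and dioxygenase, 1 lens and 0 mitophagy genes. At 0 bp there were 79 peaks (0.971%) and 75 genes, with 4, 2 and 1 from the first 3 of these lists and 0 other hypoxia response genes. The share was 4.38% at 0 to 500 bp and 10.5% on microchromosomes. Without high IgG background 1 HIF pathway and dioxygenase gene remained. The causes were not tested. With a median pileup of 10 fragments, the order of single peaks is uncertain.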

Other observations

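The 2 families of mitochondrial proteins read from symbol prefixes had shares of genes with a core promoter peak whose intervals include the 2.98% of all protein-coding genes. Of 68 mitochondrial ribosomal proteins, 3 had one (4.41%, Wilson 95% interval 1.51 to 12.2). MRPL48 had 16 fragments at 455 bp with a fold enrichment of 7.04, while MRPL44 had 7 at 282 bp and MRPL58 had 8 at 967 bp. Of 90 respiratory chain genes, 4 had one (4.44%, 1.74 to 10.9). NDUFS7, a subunit of complex I, had 17 fragments at 377 bp with a fold enrichment of 6.22. NDUFAF6, a complex I assembly factor, had 8 at 651 bp, and ATP5PB, an ATP synthase subunit, had 8 at 257 bp in a shared entry. The last of the 4, ATP5B, was found only by a synonym, in an entry of several symbols. None of these 7 peaks had high IgG background.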
